A study of Rattus norvegicus with 12 samples.

Results

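The genes described here are 39 interferon response genes, a list of genes that cells switch on after they sense an interferon, followed across islet RNA from 4 groups of rat offspring. Members were the rows of the deposited expression table whose symbol is on the list. The table of 17407 genes held 35 of the 39, and Ifi44l, Herc6, Xaf1 and Slfn3 were not found by symbol. All 35 passed the filter on low values, which asked for a scaled mean of 1 or more across the 12 libraries.

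Interferons are secreted proteins that bind receptors on neighbouring cells. Through Janus kinases the receptors activate STAT proteins, and these, with interferon regulatory factors (IRFs), bind DNA elements near the start sites of their target genes. The targets include sensors of viral RNA, enzymes that block viral replication, the ubiquitin-like protein Isg15 and its machinery, and the immunoproteasome with its peptide transporters, which prepare peptides for display to T cells. In pancreatic islets, the clusters of hormone-secreting cells that include the insulin-producing beta cells, such genes are known for their induction by viral infection and in autoimmune diabetes.

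Sprague-Dawley dams, 6 per diet, ate a low-fat diet (LF, 10% fat) or a high-fat, high-sucrose diet (HFS, 45% fat) for 6 weeks before mating and on through suckling, and dams of the second kind are labelled GDM (gestational diabetes). All sires were fed LF. Pups ate LF or HFS for 12 weeks after weaning, and their islets were isolated at 15 weeks. The groups, named by dam and then by weaning diet, were Lean-LF and GDM-LF on one diet and Lean-HFS and GDM-HFS on the other, with 3 libraries each. Lean-LF animals never ate HFS, Lean-HFS animals met it at weaning, GDM-LF animals met it only through the dam, and GDM-HFS animals met it throughout. The litter and sex of the pups are not named in the labels, so pups of 1 litter cannot be told from pups of several. The p-values therefore measure the spread between these libraries, which may include siblings.

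Each library held 11469290 to 27492858 gene reads, and a value of 1 stood for 1.96 to 5.02 reads. Values below are scaled values, depth-normalised and then rescaled between libraries, and are not divided by gene length. Counting error is small for most members, but Irf4 had 0 to 83 reads per library (median 4.5) and Slfn4 0 to 226 (median 12.5). Oas1a had 5 to 326 (median 15) and Mx2 2 to 752 (median 16.5). Others were low in single libraries, with a lowest count of 6 reads for Ifit3, 10 for Rtp4 and Bst2 and 12 for Isg15. Members with close copies in the genome (Mx1 and Mx2, Oas1a, Slfn4, Gbp2, Ifit2 and Ifit3) are uncertain as single genes, since the handling of reads that match more than 1 place is not stated. Reads were counted on both strands, so an antisense or overlapping partner cannot be told apart.

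1 library stood apart for this set of genes. GDM-LF 2 was the highest of the 12 libraries for 33 of 35 members, against 18.7% of all 12339 genes tested. It was over 2 times the next-highest library for 21 of 35, against 3.94% of all genes. The exceptions were Psmb10, highest in GDM-HFS 3, and Ddx58, highest in Lean-LF 2. GDM-LF 2 also had the highest mean log2 level of 16 acinar markers, genes of the digestive-enzyme cells that surround islets, so results are given with and without it.

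**Figure D1:**
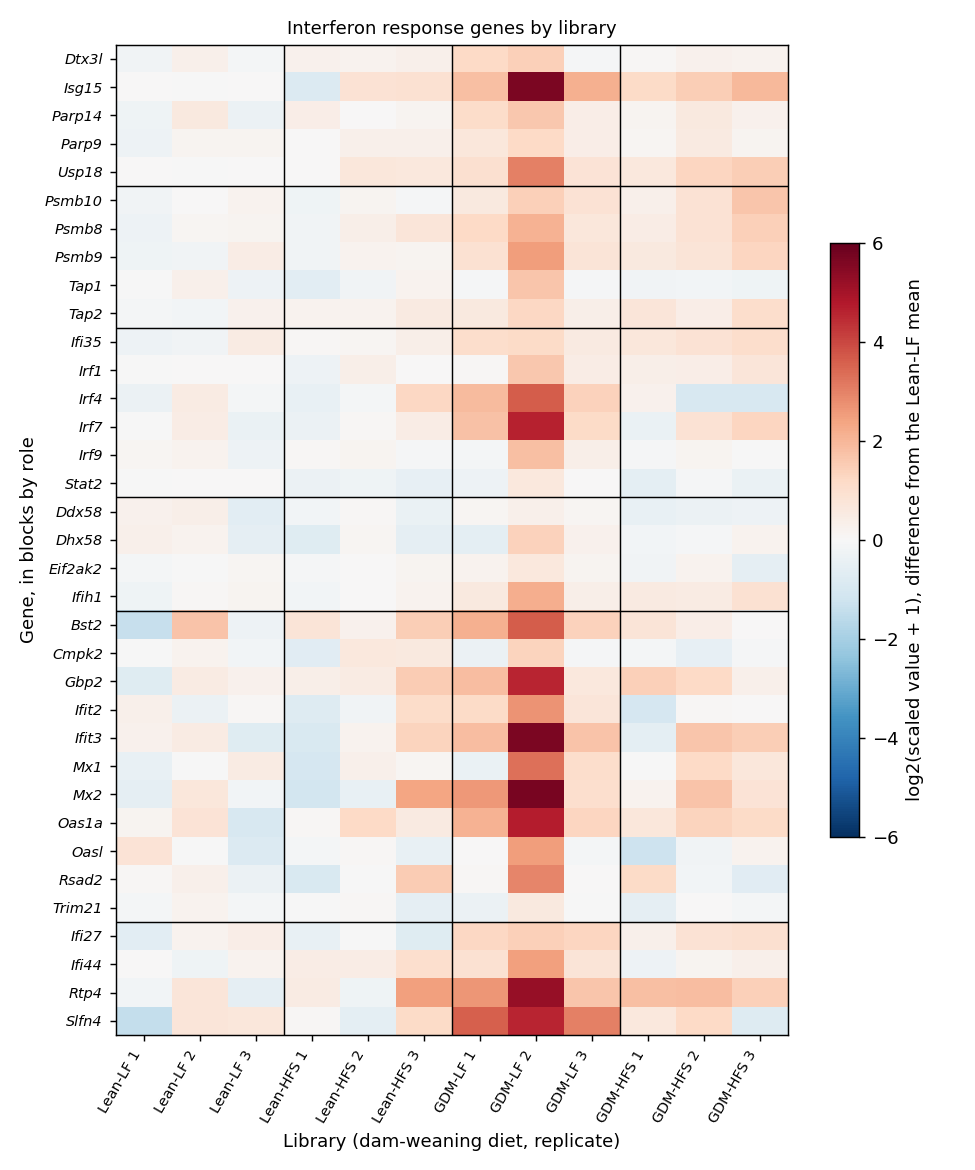
Scaled level of the 35 members (rows, in blocks by role) in the 12 libraries (columns), as log2(scaled value + 1) minus the Lean-LF mean; red is higher and blue lower. GDM-LF 2 is the reddest column, and GDM-LF 1 and 3 are redder than the Lean-LF columns in many rows.

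For orientation at the sequence level, the promoter windows of the members (250 bases before to 50 after the start site, RefSeq on build GRCr8) were searched for the core of the interferon-stimulated response element on both strands, spelled GAAA, then any 2 bases, then GAAA. This element is the known binding site of IRF and STAT complexes. Windows were found for 28 of the 35 members; Isg15, Rtp4, Mx2, Ifit2, Ddx58, Dhx58 and Usp18 had no entry. The core was in 17 of the 28 (60.7%), against 3.77% of 27457 promoters of the same length. A second motif, TTCNNNGAA, the core of the gamma-activated site bound by STAT dimers, was in 6 of 28 (21.4%), against 8.68% of all. The stretches below hold no match of this second motif. In Bst2, which is not shown, its match at -137 to -129 overlapped the first core at -131 to -122. These matches are descriptions of letters and not of binding in these islets.

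Stretches upstream of the start site are shown for genes that rose (Ifi27, Psmb10), for genes with large values in GDM-LF 2 (Irf7, Ifit3, Oas1a, Gbp2), for Ifih1, whose GDM libraries were all above the lean ones, and for Eif2ak2 and Trim21, which hold the core but differed little between dams. Each runs 5′ to 3′ on the strand of its gene, and capitals mark the core on either strand.
Ifi27: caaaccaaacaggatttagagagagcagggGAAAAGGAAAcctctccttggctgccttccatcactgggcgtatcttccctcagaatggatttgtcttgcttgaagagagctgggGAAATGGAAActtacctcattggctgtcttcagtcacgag
Psmb10: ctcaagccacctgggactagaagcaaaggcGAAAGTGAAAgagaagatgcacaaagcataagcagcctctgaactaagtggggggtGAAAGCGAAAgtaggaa
Irf7: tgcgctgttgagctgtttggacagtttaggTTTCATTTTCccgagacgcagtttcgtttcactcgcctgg
Ifit3: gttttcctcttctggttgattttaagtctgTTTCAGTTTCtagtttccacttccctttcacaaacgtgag
Oas1a: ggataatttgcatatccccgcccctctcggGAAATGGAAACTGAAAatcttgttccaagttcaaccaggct
Ifih1: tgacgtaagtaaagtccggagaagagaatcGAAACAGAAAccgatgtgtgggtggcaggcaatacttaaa
Gbp2: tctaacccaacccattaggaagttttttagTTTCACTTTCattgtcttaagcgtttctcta
Eif2ak2: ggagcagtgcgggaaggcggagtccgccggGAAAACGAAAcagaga
Trim21: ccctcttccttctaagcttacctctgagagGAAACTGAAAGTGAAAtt
The Ifi27 stretch lies at chr6:128355113-128355267 (plus strand) and holds the core at -169 to -160 and at -84 to -75 from the start site. The Psmb10 stretch lies at chr19:50743293-50743395 (minus strand) with matches at -73 to -64 and -17 to -8. The others lie at chr1:205800053-205800122 (minus strand) for Irf7, chr1:241527252-241527321 (plus strand) for Ifit3, chr12:41330395-41330465 (plus strand) for Oas1a, chr3:67683988-67684057 (minus strand) for Ifih1, chr2:234005666-234005726 (plus strand) for Gbp2, chr6:21941108-21941153 (plus strand) for Eif2ak2 and chr1:166399372-166399419 (minus strand) for Trim21. In Oas1a and in Trim21, 2 matches overlapped each other. Of the 6 members that rose between dams and have a window, 3 hold the core (Ifi27, Psmb8 and Psmb10), and of the 22 others 14 do.

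The first comparison asked whether islets of offspring of GDM dams differed from those of lean dams over both weaning diets. With the effect averaged over the diets, 9 members were higher and 0 lower past the threshold (limma, adjusted p under 0.05), where 6.13% of all genes tested were called higher and 5.43% lower. On the recovered reads edgeR called 13 members higher, against 5.44% of all genes, and DESeq2 15, against 9.51%. The 9 were Isg15, Usp18, Psmb8, Psmb9, Psmb10, Ifi35, Ifi27, Rtp4 and Slfn4. In all, 33 of 35 members were higher, against 52.7% of all genes, and the median log2 difference was 0.75, against 0.03 over all genes. The unadjusted p was under 0.05 for 19 of the 35 members and for 30.9% of all genes. Bulk RNA cannot tell more cells of a type from more RNA per cell.

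These calls do not hold under every setting. Without the libraries whose titles carry the letter K (GDM-LF 1, GDM-LF 2 and GDM-HFS 3, so all from GDM dams), 0 members and 0.0% of all genes passed, and the members' median log2 difference was 0.39. Adding the acinar level to the fit left 1 (Ifi27, with 1.18% of all genes called higher) and the median was 0.33. Ribosomal RNA took 1.84 to 38.98% of reads in the lean libraries and 1.84 to 8.55% in the GDM ones, and with the level of its precursor Rn45s as a covariate 0 members and 0.0% of all genes passed, with a median of 0.58. Leaving out 1 library gave 1 to 18 calls: 1 (Ifi27) without Lean-LF 1, with 1.24% of all genes called higher, or without Lean-LF 2, with 1.09%, 3 without Lean-HFS 1, with 2.03%, 4 without GDM-HFS 2, with 3.87%, or GDM-HFS 3, with 1.85%, and 18 without GDM-LF 3, with 9.12%. Ifi27 was the 1 member called in each of those 12 fits.

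Isg15 is a ubiquitin-like protein that is attached to other proteins, and Usp18 removes it and also dampens interferon receptor signalling. The Isg15 gene (chr5:177098680-177099967, rn5, minus strand) had scaled values of 10.4, 10.0 and 10.3 in Lean-LF, 5.38, 19.5 and 20.0 in Lean-HFS, 38.0, 564 and 48.9 in GDM-LF, and 23.6, 30.1 and 42.1 in GDM-HFS. Every GDM library was above every lean library, and 1 library, GDM-LF 2, was 11.5 times the next highest. The averaged log2 difference was 2.20 ± 0.55 (SE), a 4.59-fold difference, with an adjusted p of 0.0267 (limma). Without GDM-LF 2 it was 1.58 with an adjusted p of 0.0241 (limma), and the call was lost without Lean-LF 1, Lean-LF 2, Lean-HFS 1, GDM-HFS 2 or GDM-HFS 3, where the adjusted p reached 0.0757.

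For Usp18 (chr4:220895597-220922139, plus strand) the values were 38.1, 37.4 and 38.7 in Lean-LF, 38.5, 62.1 and 60.1 in Lean-HFS, 75.3, 317 and 67.0 in GDM-LF, and 59.5, 93.8 and 107 in GDM-HFS. GDM-HFS 1 lay just below the upper 2 Lean-HFS libraries and the other GDM libraries were above all lean ones. Its averaged log2 difference was 1.14 ± 0.33 (SE), with an adjusted p of 0.0416 (limma). Leaving out any 1 of 7 libraries (Lean-LF 1 or 2, each Lean-HFS library, GDM-HFS 2 or 3) ended the call, with an adjusted p of up to 0.104 (limma). The neighbouring genes of the ubiquitin ligase Dtx3l and of its partner Parp9 have starts that face each other 1213 bases apart on chromosome 11. Parp14 is an ADP-ribosyltransferase gene on the same chromosome. None of them passed in limma, with log2 differences of 0.39 for Dtx3l, 0.42 for Parp9 and 0.60 for Parp14. Their adjusted p were 0.243, 0.0909 and 0.0774 (limma). On the recovered reads DESeq2 called Parp14, and edgeR called none of them.

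The antigen-processing members gave 3 calls of 5, and these were the catalytic subunits of the immunoproteasome, Psmb8, Psmb9 and Psmb10. They replace the standard catalytic subunits of the proteasome and change which peptides it cuts. Psmb10 (chr19:48776575-48779058, minus strand) measured 156, 179 and 205 in Lean-LF, 148, 199 and 173 in Lean-HFS, 274, 478 and 333 in GDM-LF, and 224, 329 and 569 in GDM-HFS. All 6 GDM libraries were above all 6 lean ones, and the highest was GDM-HFS 3 rather than GDM-LF 2. The log2 difference was 0.99 ± 0.21 (SE), or 1.99-fold, with an adjusted p of 0.0148 (limma), and the call was lost without Lean-LF 1 or Lean-LF 2, at an adjusted p of up to 0.0537.

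Psmb9 (chr20:6052972-6058393, minus strand) read 31.7, 33.1 and 52.0 in Lean-LF, 32.3, 43.8 and 42.3 in Lean-HFS, 72.3, 219 and 65.5 in GDM-LF, and 57.7, 66.4 and 92.9 in GDM-HFS. Here too the groups from GDM and lean dams did not overlap, and the log2 difference was 1.12 ± 0.28 (SE; limma, adjusted p 0.0248). Psmb8 (chr20:6070357-6073320, plus strand) stood at 55.9, 77.4 and 79.8 in Lean-LF, 59.6, 90.4 and 115 in Lean-HFS, 161, 297 and 115 in GDM-LF, and 95.7, 128 and 191 in GDM-HFS. Lean-HFS 3 reached the lower GDM libraries, so the groups overlapped, and the log2 difference was 0.98 ± 0.25 (SE; limma, adjusted p 0.0274). Both calls ended without Lean-LF 1, Lean-LF 2, Lean-HFS 1 or GDM-HFS 3, and that of Psmb8 also without GDM-HFS 2, at adjusted p of up to 0.0783 for Psmb9 and 0.0860 for Psmb8 (limma).

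The peptide transporter genes Tap1 and Tap2, which carry the cut peptides into the endoplasmic reticulum, did not pass. They lie interleaved with the proteasome genes on chromosome 20: Psmb9 and Tap1 start head to head 456 bases apart, Psmb8 follows 1139 bases after Tap1, and Tap2 1771 bases after Psmb8. Tap1 stood at 100.4 to 106 in GDM-HFS and at 113, 115 and 385 in GDM-LF, against 76.2 to 149 in the 6 lean libraries. Its log2 difference was 0.25 and its adjusted p 0.561 (limma), and without GDM-LF 2 the difference was -0.04. Of 2 genes that face each other across 456 bases, Psmb9 therefore passed and Tap1 did not; the difference between them was not tested.

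Of 6 entries grouped as transcription factors 1 passed in limma, Ifi35, a leucine-zipper protein that interferon induces. Ifi35 is neither an IRF nor a STAT, and no IRF or STAT entry of the group passed in limma. Ifi35 (chr10:89156392-89164644, plus strand) ran at 63.4, 67.0 and 110 in Lean-LF, 82.0, 84.4 and 98.8 in Lean-HFS, 163, 172 and 113 in GDM-LF, and 123, 141 and 163 in GDM-HFS. All GDM libraries exceeded all lean ones, with Lean-LF 3 and GDM-LF 3 close together. The log2 difference was 0.80 ± 0.17 (SE), with an adjusted p of 0.0149 (limma), and of up to 0.0538 without Lean-LF 1 or Lean-LF 2, where the call was lost.

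Irf1, an early IRF induced by interferon gamma, measured 130, 135 and 134 in Lean-LF, 107, 170 and 137 in Lean-HFS, 140, 406 and 181 in GDM-LF, and 167, 174 and 221 in GDM-HFS. GDM-LF 1 and GDM-HFS 1 were below the highest lean library, and the log2 difference of 0.58 had an adjusted p of 0.0964 (limma). On the recovered reads DESeq2 called Irf1 and edgeR did not. Irf7, the factor that amplifies the interferon alpha response, was at 67.0, 491 and 43.7 in GDM-LF against 14.1 to 25.7 in Lean-LF, and at 14.2, 35.3 and 46.7 in GDM-HFS. Its log2 difference was 1.53 with an adjusted p of 0.0601 (limma), and edgeR and DESeq2 on the recovered reads called it. Stat2 and Irf9, which belong to the complex that binds the response element, differed by 0.06 and 0.33 with adjusted p of 0.819 and 0.417 (limma), and Irf4, a factor of lymphocytes, had 10 of 12 libraries with any read.

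None of the 4 RNA sensors passed in limma, and 1 of the 4 (Ifih1) had an unadjusted p under 0.05. Ifih1 (MDA5), a sensor of long double-stranded RNA, was at 32.5 to 45.5 in the 6 lean libraries, 60.6, 184 and 51.3 in GDM-LF, and 57.3, 55.9 and 75.0 in GDM-HFS. Its libraries did not overlap between dams, and the log2 difference was 0.84 with an adjusted p of 0.0571 (limma); edgeR and DESeq2 on the recovered reads called it. Eif2ak2 (PKR), the kinase that halts translation on double-stranded RNA, had 164, 174 and 192 in Lean-LF, 170, 178 and 200 in Lean-HFS, 201, 275 and 199 in GDM-LF, and 153, 206 and 119 in GDM-HFS. Ddx58 (RIG-I), which senses RNA ends, had 87.1, 95.2 and 47.4 in Lean-LF, 64.5, 76.4 and 54.6 in Lean-HFS, 79.4, 91.8 and 79.5 in GDM-LF, and 53.7, 56.6 and 58.8 in GDM-HFS. The dams' groups overlapped for both genes, and the log2 differences were 0.05 ± 0.14 and -0.01 ± 0.18 (SE).

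Among the 11 antiviral effectors, 0 passed in limma and 4 had an unadjusted p under 0.05; edgeR on the recovered reads called 2 of them (Ifit3 and Oas1a) and DESeq2 3 (Gbp2, Mx1 and Oas1a). Rsad2 (viperin), which makes a chain-terminating nucleotide, measured 79.3, 93.1 and 59.8 in Lean-LF, 39.9, 74.0 and 222 in Lean-HFS, 79.4, 593 and 77.5 in GDM-LF, and 168, 67.3 and 46.7 in GDM-HFS. Gbp2, an interferon-induced GTPase, measured 11.2, 27.4 and 22.9 in Lean-LF, 24.6, 27.5 and 56.5 in Lean-HFS, 71.1, 477 and 30.0 in GDM-LF, and 52.8, 45.2 and 24.2 in GDM-HFS. For both, GDM-LF 2 was far above the rest. The other 5 GDM libraries lay within the range of the lean ones for Rsad2, and 4 of the 5 did for Gbp2. Rsad2 differed by 0.45 on the log2 scale with all libraries and by -0.03 without GDM-LF 2.

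The ratio of GDM-LF 2 to the next-highest library was 14.3 for Ifit3, 8.90 for the GTPase gene Mx2, 6.71 for Gbp2 and 6.40 for Oas1a, an enzyme that activates RNase L. Those 4 genes had averaged log2 differences of 1.84, 1.88, 1.27 and 1.58, and adjusted p of 0.0830, 0.104, 0.125 and 0.0621 (limma). Without GDM-LF 2 the differences were 1.20, 1.24, 0.71 and 1.08. The low side of the effector group was Trim21, an antibody-binding ubiquitin ligase, and Cmpk2, a mitochondrial nucleotide kinase, with log2 differences of 0.01 and -0.04.

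The remaining induced genes gave 3 calls of 4. Ifi27 (chr6:136548490-136554961, plus strand), a small membrane protein, measured 403, 714 and 823 in Lean-LF, 449, 610 and 377 in Lean-HFS, 1488, 1667 and 1500 in GDM-LF, and 753, 1126 and 1196 in GDM-HFS. The 3 GDM-LF libraries lay close together, and GDM-LF 2 was 1.11 times the next highest. Its log2 difference was 1.21 ± 0.19 (SE), or 2.31-fold, with an adjusted p of 0.0097 (limma), and it kept its call when any 1 of the 12 libraries was left out. It was also the most abundant member, at a mean of 1169 scaled units per kilobase of transcript over all libraries, above Psmb10 at 276, Psmb8 at 113, Ifi35 at 108 and Isg15 at 104. Slfn4 at 2.38 and Irf4 at 0.75 per kilobase were the lowest.

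Rtp4 (chr11:80084427-80096284, plus strand), a receptor-transporter protein induced by interferon, measured 4.26, 8.70 and 2.99 in Lean-LF, 7.17, 3.98 and 31.0 in Lean-HFS, 35.8, 220 and 17.8 in GDM-LF, and 19.8, 20.0 and 15.0 in GDM-HFS. Lean-HFS 3 was above GDM-LF 3 and all 3 GDM-HFS libraries. The log2 difference was 2.00 ± 0.56 (SE; limma, adjusted p 0.0400) and 1.48 without GDM-LF 2, where the adjusted p was 0.062 (limma). The call held without Lean-HFS 3, GDM-LF 1 or GDM-LF 3, and was lost without any other 1 of the 12 libraries, at an adjusted p of up to 0.104 (limma).

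Slfn4 (chr10:70045721-70069233, plus strand), a Schlafen gene known from myeloid cells, read 0, 3.48 and 3.32 in Lean-LF, 1.79, 0.796 and 5.01 in Lean-HFS, 30.9, 63.4 and 21.0 in GDM-LF, and 3.15, 5.16 and 0.576 in GDM-HFS. It was high in the 3 GDM-LF libraries and low in the other 9, and its averaged log2 difference of 1.93 ± 0.50 (SE; limma, adjusted p 0.0290) combined 3.73 on the LF diet with 0.14 on the HFS diet. Without GDM-LF 2 its averaged difference was 1.72 with an adjusted p of 0.063 (limma), and the call was also lost without Lean-LF 1 or 2, Lean-HFS 1 or 2, or GDM-HFS 1 or 2, at an adjusted p of up to 0.0801.

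**Figure D2:**
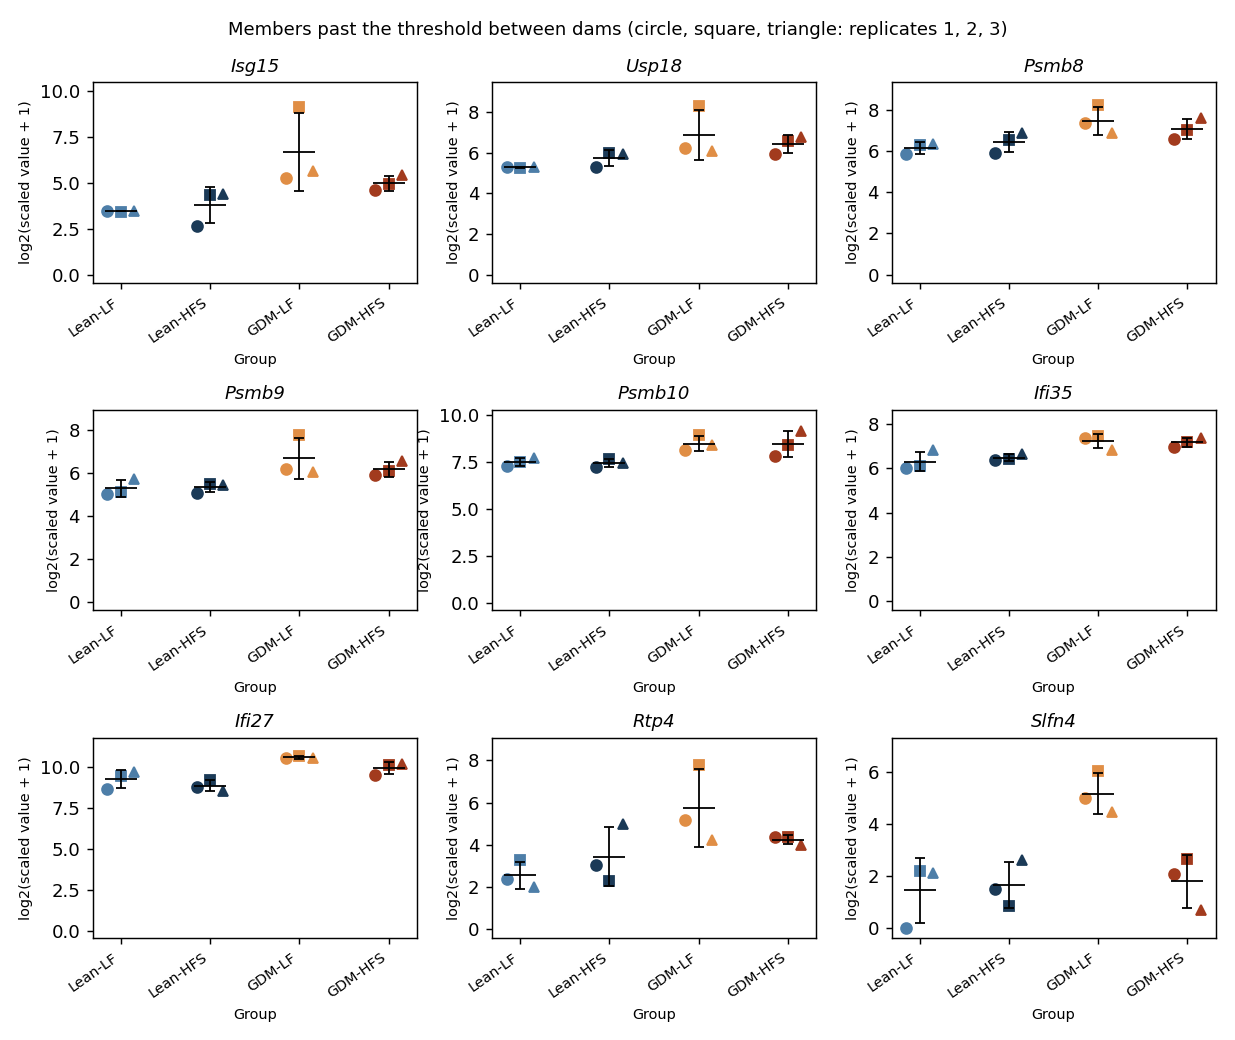
Scaled values of the 9 members that passed, as log2(scaled value + 1), by group; each point is a library (circle, square and triangle for replicates 1, 2 and 3), the long bar is the mean and the whiskers the SD over 3 libraries. GDM-LF 2, the orange square, lies far above its group for Isg15, Usp18, Psmb9 and Rtp4 and near it for Ifi27 and Ifi35.

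Leaving out GDM-LF 2 gave 7 calls of 35 in the averaged comparison, where 3.78% of all genes were called higher. They were Isg15, Usp18, Psmb8, Psmb9, Psmb10, Ifi35 and Ifi27, and the calls of Rtp4 and Slfn4 were lost. The median log2 difference of the 35 was 0.45, against 0.02 over all genes, and 27 were higher, against 6400 of the 12339 genes tested. All 6 GDM libraries were above all 6 lean ones for 5 members (Isg15, Psmb9, Psmb10, Ifih1 and Ifi35), against 2.8% of all genes, and below for 0 members, against 2.32%.

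**Figure D3:**
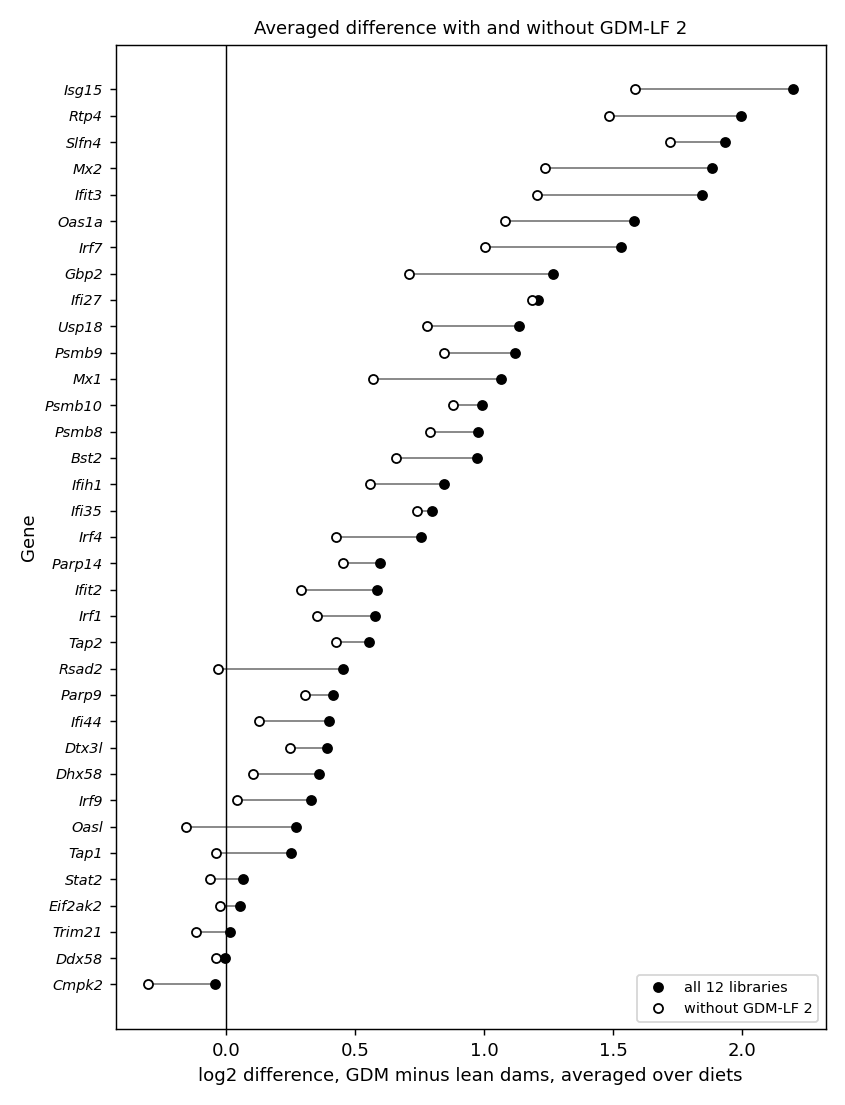
Averaged log2 difference of each member between GDM and lean dams, with all 12 libraries (filled) and without GDM-LF 2 (open). Most open points lie left of the filled ones, and those of Ifi27, Ddx58, Ifi35 and Eif2ak2 move least.

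On the LF weaning diet alone, all 35 members were higher in offspring of GDM dams, against 53.4% of all genes, with a median log2 difference of 1.06 against 0.05. Past the threshold were 2 of 35, Slfn4 at 3.73 ± 0.70 and Ifi27 at 1.32 ± 0.27 (log2, SE), each with an adjusted p of 0.048 (limma), where 0.851% of all genes were called higher and 0.729% lower. The unadjusted p was under 0.05 for 24 members and 26.6% of all genes. Both calls end without GDM-LF 2, where 0 members and 0.0% of all genes passed in limma; 7 members passed without Lean-LF 3, with 6.78% of all genes called higher, 21 without GDM-LF 3, with 7.28%, and 0 without any other 1 of the 12. On the recovered reads of all libraries edgeR called 0 members, with 0.0% of all genes called higher, and DESeq2 called 21, against 7.46% of all genes.

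The 2 other GDM-LF libraries were measured on the same side. All 3 GDM-LF libraries were above all 3 Lean-LF libraries for 22 members, against 12.9% of all genes, and below for 0, against 12.4%. The mean of GDM-LF 1 and GDM-LF 3 was above the Lean-LF mean for 29 of 35. In the fit without GDM-LF 2, 29 of 35 members were higher on LF, against 6489 of the 12339 genes tested. The median log2 difference of the members was then 0.77, against 0.03 over all genes. Against the other 9 libraries together, all 3 GDM-LF libraries were higher for Ifi27, Ifit3, Irf4 and Slfn4, 11.4% of the members against 1.34% of all genes. Ifit3, for example, read 24.1, 344 and 22.1 in GDM-LF and 2.69 to 20.9 in the others.

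On the HFS weaning diet, 0 members passed in limma, where 0.0081% of all genes were called higher, and 4 had an unadjusted p under 0.05 (Ifi27, Psmb10, Ifi35 and Psmb9), against 14.2% of all genes. edgeR on the recovered reads also called 0, with 0.00811% of all genes called higher. DESeq2 called 2 (Ifi27 and Psmb10), against 1.69% of all genes. DESeq2 gave an adjusted p for 16 of the 35 members in this comparison and none for the other 19. On this diet 22 of 35 were higher in offspring of GDM dams, against 49.2% of all genes, and the median log2 difference was 0.19, against -0.01 over all genes. GDM-HFS libraries were all above Lean-HFS for 6 members, against 12.7% of all genes, and all below for 1, Ifi44, against 12.1%. Psmb10 and Ifi27 had log2 differences of 1.01 ± 0.29 and 1.10 ± 0.27 (SE), close to their values on LF of 0.97 and 1.32, whereas those of Mx2, Ifit3 and Irf7 were 0.67, 0.62 and 0.53 against 3.09, 3.07 and 2.53 on LF. Without GDM-LF 2 the last 3 were 1.80, 1.79 and 1.47.

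**Figure D4:**
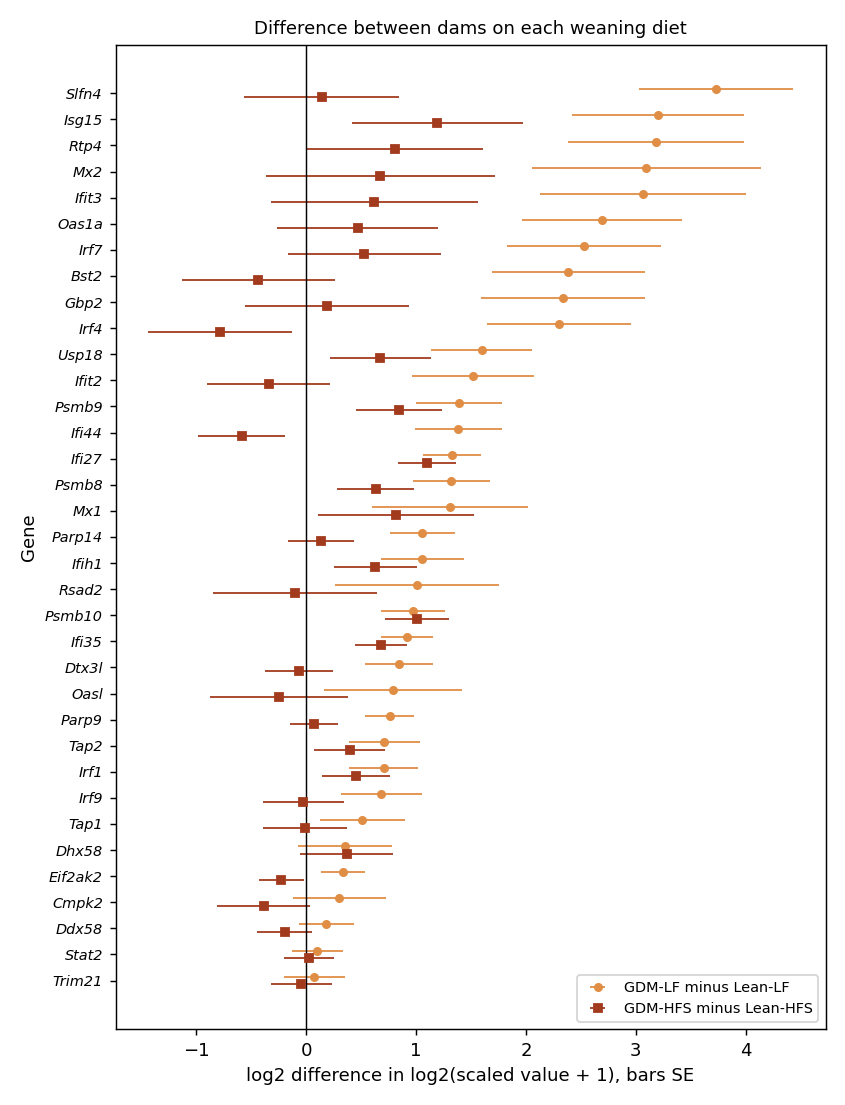
Log2 difference between GDM and lean dams for each member on the LF diet (orange circles) and on the HFS diet (red squares), with bars of 1 SE. The circles lie right of 0 in all 35 rows and far right for Slfn4, Isg15 and Rtp4, while the squares lie on both sides of 0.

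Whether the dam effect itself differed between diets was tested as an interaction. No member passed in limma, with a lowest adjusted p of 0.784, and 0.0% of all genes were called; edgeR and DESeq2 on the recovered reads also called 0 members. The unadjusted p was under 0.05 for 8 members, against 5.92% of all genes. The interaction was negative, that is a smaller GDM difference on HFS, for 33 of 35 and positive for 2, where 49.2% of all genes were positive, with a median of -0.71, and of -0.31 without GDM-LF 2. The largest was that of Slfn4, at -3.59 ± 1.00 (SE), followed by Irf4 at -3.08 and Bst2, a membrane protein that tethers budding virus, at -2.82. Without GDM-LF 2 these were -3.16, -2.42 and -2.19.

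The weaning diet was compared within each dam. In offspring of lean dams, 0 of 35 members and 0.0% of all genes passed in limma, edgeR and DESeq2 also called 0 members, and no member had an unadjusted p under 0.05, against 2.18% of all genes. In these animals 26 were higher on HFS, against 50.4% of all genes, with a median log2 difference of 0.18. In offspring of GDM dams, 0 members and 0.0% of all genes passed in limma, edgeR called 0 and DESeq2 called 1 lower (Slfn4) and 0 higher, where it called 0.219% of all genes lower and 0.0486% higher. There 1 of 35 was higher on HFS and 34 lower, where 49.6% of all genes were higher, with a median log2 difference of -0.67, and 14 had an unadjusted p under 0.05, against 9.63% of all genes. GDM-HFS libraries were all below GDM-LF for 9 members, against 6.61% of all genes, and all above for 0, against 7.42%. Without GDM-LF 2 the median was -0.26. Averaged over dams, 0 members passed in all 3 tools, where limma called 0.0% and DESeq2 0.0162% of all genes higher. There 2 members were higher on HFS, against 48.8% of all genes, 5 had an unadjusted p under 0.05 in limma, against 4.95%, and the median was -0.35.

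By group mean, GDM-LF was the highest of the 4 groups for 34 of the 35 members. That mean includes GDM-LF 2, the highest library for 33 of the 35, and the share over all genes was not counted. The mean log2 level over the 35 was 4.86, 5.27 and 4.95 in Lean-LF, 4.81, 5.18 and 5.54 in Lean-HFS, 5.95, 7.62 and 5.75 in GDM-LF, and 5.22, 5.57 and 5.50 in GDM-HFS. The 3 GDM-LF libraries were the highest of the 12, and the groups on HFS overlapped through Lean-HFS 3.

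Markers of other cells that an islet preparation can hold were read in the same libraries. The mean log2 level of 16 acinar markers was 9.59 to 11.07 in Lean-LF, 10.30 to 12.86 in Lean-HFS, 10.39, 14.30 and 10.39 in GDM-LF, and 12.01 to 13.06 in GDM-HFS. Their summed values ranged over 27448 to 77489, 41785 to 229037, 39171 to 679723 and 110299 to 219506 in those groups, and 1 of the 16 (Try4) was called higher in the averaged comparison, with all 16 higher. GDM-LF 2 was the highest library, and GDM-LF 1 and 3 were inside the Lean-LF range. With the acinar level in the fit, 1 of the 9 calls was left, as given above.

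The mean log2 level of 15 macrophage markers was 3.75 to 4.72 in Lean-LF, 3.49 to 4.92 in Lean-HFS, 2.37, 4.79 and 4.28 in GDM-LF, and 4.81, 4.80 and 1.27 in GDM-HFS, with 0 called between dams in limma, 0 with an unadjusted p under 0.05, and a median log2 difference of -0.40. Of 16 lymphocyte markers in the table, 5 passed the filter, with 0 called and a median of -0.12. Of 9 neutrophil markers 2 passed the filter (Lcn2 and S100a9), with 0 called and a median of 1.09, and Mpo was at 0 reads in all 12 libraries. Among 11 endothelial markers Eng and Kdr were called lower and 0 higher, where 5.43% of all genes were called lower and 6.13% higher. Of 12 islet endocrine markers Ppy was higher, with a log2 difference of 1.61, and Nkx6-1 lower, at -0.87. Of 9 duct markers Car2 was called higher. Over the duct list 8 of 9 were higher, with a median log2 difference of 0.99 and 5 with an unadjusted p under 0.05 (limma). Without GDM-LF 2 the duct median was 0.60. Eng, Kdr and Car2 were then not called, with a lowest adjusted p of 0.081 among endothelial and 0.0576 among duct markers (limma). The mean log2 level of the duct markers was at most 6.58 in the 6 lean libraries, 6.91, 7.57 and 5.74 in GDM-LF and 5.77 to 5.93 in GDM-HFS. That of the 2 neutrophil markers was 4.17 to 5.34 in the lean libraries, 6.39, 8.08 and 4.81 in GDM-LF and 4.46 to 5.20 in GDM-HFS. GDM-LF 1 and GDM-LF 2 were above every lean library for both lists. GDM-LF 2 was also the highest of the 12 for MHC class II markers and the lowest for islet endocrine markers, at 12.28 against 12.46 to 13.04 in the others. The part of these cells in the results was not tested.

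**Figure D5:**
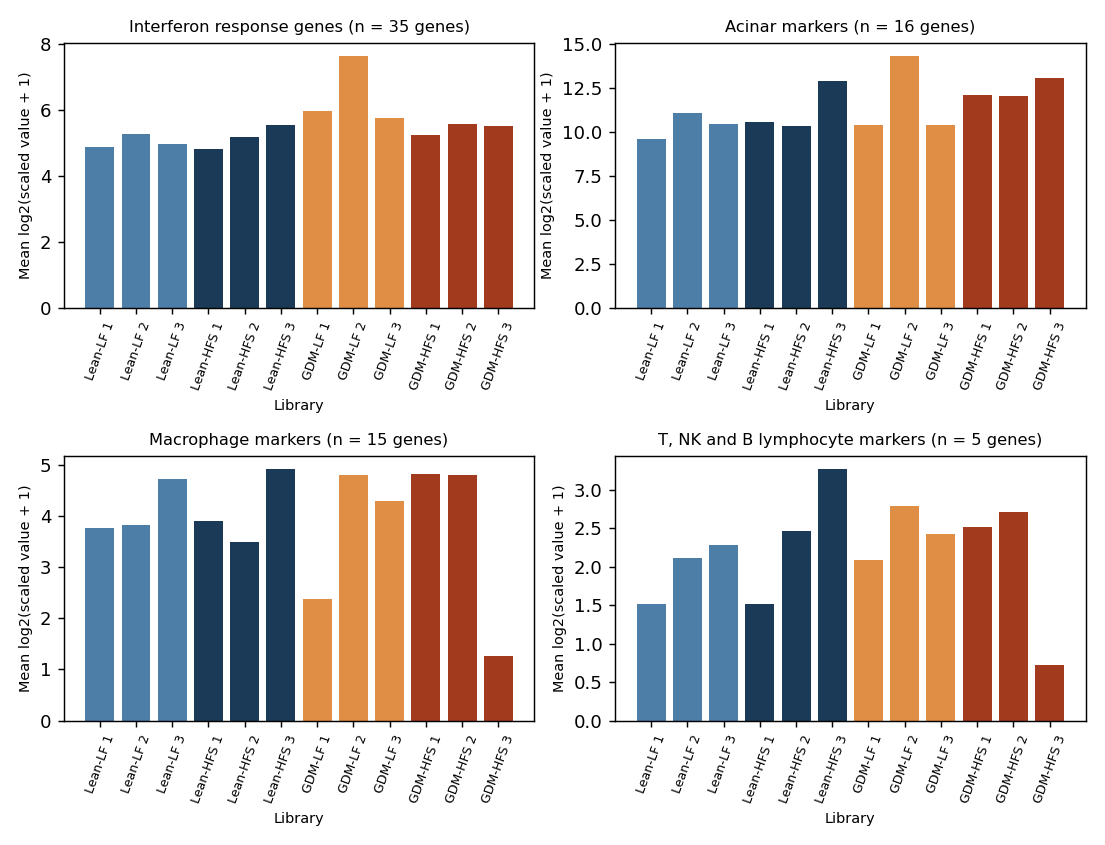
Mean log2(scaled value + 1) of the 35 interferon response genes and of the acinar, macrophage and lymphocyte marker lists in each of the 12 libraries. The interferon response level is highest in the 3 GDM-LF libraries, and the acinar level is highest in GDM-LF 2.

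Other genes of the pathway came from a list of 82, of which 67 were in the table and 59 were tested. Between dams, averaged over diets, 4 of the 59 were called higher, 1 lower and 54 not called (limma), with a median log2 difference of 0.26. Over all genes 6.13% were called higher and 5.43% lower, so the share of these genes called higher was near that of all genes. Psme2 and Psme1, the paired subunits of the PA28 activator that caps the proteasome, were among the 4, with log2 differences of 1.09 and 0.72 and adjusted p of 0.0119 and 0.0169 (limma). Psme2 measured 125, 167 and 221 in Lean-LF, 198, 210 and 199 in Lean-HFS, 353, 623 and 279 in GDM-LF, and 337, 360 and 477 in GDM-HFS, with all GDM libraries above all lean ones. The other 2 were Ifitm2, which blocks viral entry (0.84, adjusted p 0.0329), and Ube2l6, the conjugating enzyme for Isg15 (0.55, adjusted p 0.0497; limma).

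The 1 pathway gene that fell was Tmem173 (STING), the adaptor that relays sensing of cytosolic DNA. It measured 47.9, 43.9 and 38.4 in Lean-LF, 31.4, 32.6 and 33.2 in Lean-HFS, 21.8, 21.9 and 28.0 in GDM-LF, and 24.9, 25.8 and 13.3 in GDM-HFS. Every GDM library was below every lean one, as for 2.32% of all genes, and the log2 difference was -0.74 with an adjusted p of 0.0316 (limma). Without GDM-LF 2 this call was lost: the lowest adjusted p among the 11 tested genes of sensing and induction was then 0.0605 (limma). B2m, the light chain of MHC class I, was at 2921 to 2984 in Lean-LF and at 4445, 6189 and 4182 in GDM-LF, but at 3021 to 3525 in Lean-HFS and 2848 to 4202 in GDM-HFS. Its averaged log2 difference was 0.38 with an adjusted p of 0.0992 (limma).

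Upstream of the induced genes, the receptors and their kinases and STATs gave no call. Of 5 receptor genes tested, 0 were called in limma and 0 had an unadjusted p under 0.05; the type I receptor gene Ifnar1 differed by -0.20 (adjusted p 0.365), the type II receptor genes Ifngr1 and Ifngr2 by 0.16 (adjusted p 0.531) and 0.05 (adjusted p 0.857), and Ifnar2 was not found by symbol. Of 10 genes of kinases, STATs and feedback, 0 were called in limma and 3 had an unadjusted p under 0.05. Of 11 interferon genes listed, 6 were in the table, and the others were not found by symbol and could not be read. Those 6 were nearly unread: Ifna1, Ifna2 and Ifna4 had 0 reads in all 12 libraries. Ifnb1 had 2 reads in 1 library, Ifng 6 reads in 2, and Ifnk 24 reads in 6. A count of 0 allows up to 3 reads per library, so transcripts of those 3 alpha genes were not detected at this depth. The handling of reads that match more than 1 place is not stated, which limits this reading too. Of the 6, 0 passed the filter on low values.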

How the data were processed

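RNA from hand-picked islets of 12 rats was sequenced after removal of ribosomal RNA (Ribo-Zero) with a directional kit, per the labels' protocols. The submitters' processing notes name the aligner STAR 2.5.1b, the counter HOMER 4.9 and DESeq2, without saying what DESeq2 was used for. The deposited values are a depth-scaled signal over the exons of each gene on both strands, build rn5, per the file headers. The header names FPKM, but the deposited signal was not divided by length: values were whole multiples of 1 step per library, which gave whole reads for 100% of values up to 1000 reads (tolerance 0.1), and the test was kept on the log scale. Ribosomal RNA took 1.84 to 38.98% of reads over 3 entries. Libraries held 11469290 to 27492858 gene reads.

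Each library was divided by its median ratio to the geometric mean of 11337 genes (factors 0.83 to 1.27). Genes with a mean of at least 1 were tested (12339) with limma 3.58.1 in R 4.3.3 on log2(scaled value + 1), with a mean-variance trend, 1 mean per group over all 12 libraries and 7 contrasts. Adding 1 understates the changes of genes with low values. p-values were adjusted by Benjamini-Hochberg over all genes in each contrast, with a threshold of 0.05; replicate numbers were not used as a block. edgeR 4.0.16 and DESeq2 1.42.0 were run on the recovered reads. The limma fit was also run on simulated reads with changes put into randomly picked genes. That simulation held no outlying library and no built-in acinar or ribosomal RNA difference between dams, so it cannot speak to the effect of these on the calls.

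Values in every library were given for members past the threshold in any contrast and, in each role group, for those of highest mean until at least 2 were shown. Of the pathway lists, genes past the threshold between dams and the receptor genes Ifnar1, Ifngr1 and Ifngr2 were named, and 1 further gene of the rule is not reported here; other examples were chosen after their values were seen. The members and the gene lists were chosen with earlier results of these data known. Alternatives were another pseudocount, no filter, no rescaling, no variance trend, a replicate block, leaving out libraries, the acinar level as a covariate and removal of a trend with length; the level of the ribosomal precursor Rn45s as a covariate was added after the data were seen.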

Additional observations from a re-analysis of the deposited data

Results flagged for a closer look

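Ifi44, a cytoplasmic protein that interferon induces, had measured differences of opposite sign between dams on the 2 weaning diets. In limma it passed the threshold on neither diet, and DESeq2 on the recovered reads called it on LF. On LF it measured 19.4, 15.7 and 21.8 in Lean-LF and 36.5, 108 and 32.6 in GDM-LF, and on HFS 26.0, 26.3 and 38.2 in Lean-HFS and 14.8, 21.3 and 23.1 in GDM-HFS. All GDM libraries were above the lean ones on LF, as for 12.9% of all genes, and below them on HFS, as for 12.1%. The interaction was -1.97 ± 0.56 on the log2 scale (SE), with an unadjusted p of 0.0037 and an adjusted p of 0.784 (limma), so it did not pass over all genes. Without GDM-LF 2 it was -1.43.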

How the results depend on the processing

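The averaged dam comparison called 9 members in the reported analysis. It called 8 with a pseudocount of 0.1, 7 with no filter, 9 with no rescaling, 13 in edgeR, 15 in DESeq2, 3 with no mean-variance trend, 4 with the length trend removed, 1 with the acinar level as covariate, 0 without the K libraries (GDM-LF then has 1 library, whose spread is taken from the other groups) and 0 with the Rn45s level as covariate. Leaving out 1 library gave 1 to 18: 1 without Lean-LF 1 or Lean-LF 2, 3 without Lean-HFS 1, 4 without GDM-HFS 2 or GDM-HFS 3 and 18 without GDM-LF 3. With no mean-variance trend 3.35% of all genes were called higher, and with the length trend removed 1.9%. Over all genes 1.24% and 1.09% were called higher without Lean-LF 1 and Lean-LF 2, 9.12% without GDM-LF 3, and 0.0% without the K libraries and with the Rn45s covariate.

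On the LF diet, 2 members were called in the reported analysis, 5 with no rescaling, 21 in DESeq2, and 0 with a pseudocount of 0.1, no filter, no trend, edgeR, the acinar or Rn45s covariate, the length trend removed or the K libraries left out. Leaving out 1 library gave 0 to 21, with 7 without Lean-LF 3 and 21 without GDM-LF 3. On LF, 0.0% of all genes were called higher with no trend, in edgeR, with either covariate and with the length trend removed. On HFS DESeq2 called 2, and between diets in offspring of GDM dams 1; DESeq2 gave no adjusted p for Isg15 and Ifit3 in any comparison, and for 19 members in all on HFS. The median log2 difference of all genes on LF was 0.05 with rescaling and -0.17 without, and of the members 1.06 and 0.84. Over all genes the averaged comparison called 756 higher and 670 lower with rescaling, 429 and 245 without.

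With a replicate block the averaged comparison called 9 and that on LF 0. The replicate numbers share no stated source: deviations of same-numbered libraries correlated at -0.50 to 0.20, 5 of 18 pairs were over 0.1, and 5 of 12 libraries correlated best with one of their own number. On HFS the median difference of the members was 0.19, and -0.15 with the acinar covariate; no call changed sign in the alternatives run. Depth limits Irf4, Slfn4, Oas1a and Mx2, and in their lowest libraries Ifit3, Rtp4, Bst2 and Isg15, and 3 libraries per group limit every test.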
